A study of Homo sapiens with 12 samples.

Results

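The genes of the proteasome were followed through the whole experiment. Members were all rows of the count table whose symbol begins with PSM, continues with a letter from A to G and ends in a number, which gave 48 of the 26485 genes in the table. This rule used no expression value, but the members and the lists below were chosen with earlier results of these data known. The cells were HEK293, an established human embryonic kidney line labelled wild type, and every culture received 1 µg of plasmid by lipid transfection and was harvested 48 hr later. Control cells received LifeAct-Dendra2, a fluorescent actin-binding protein. The other groups received the PEG10 constructs gag-pol, gag or NC. PEG10 is a domesticated retrotransposon gene, gag-pol is its full-length frameshifted protein, gag is the shorter protein without pol, and NC is the nucleocapsid part alone. Each of the 4 groups had 3 libraries of poly(A) RNA, 1 from each of 3 independent passages of the same line, so that spread between libraries is spread between passages of 1 line. No group was left untransfected, and overexpression came on top of the PEG10 that HEK293 cells make themselves.

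The proteasome degrades proteins that carry ubiquitin chains. Its 20S core is a barrel of outer alpha rings (PSMA genes) and inner beta rings (PSMB genes), with the catalytic sites in PSMB5, PSMB6 and PSMB7. The 19S cap recognizes and unfolds substrates with a ring of ATPases (PSMC genes) and a set of non-ATPase subunits (PSMD genes), among them PSMD14, the enzyme that removes ubiquitin from the substrate. PSMG1 to PSMG4 are chaperones that build the 20S core, PSMD5, PSMD9 and PSMD10 help to build the 19S base, PSME1 to PSME4 encode alternative caps, and PSMF1 encodes the regulator PI31. Subunit genes are known to be raised together by the transcription factor NRF1 when proteasome activity is inhibited. UBQLN2, a shuttle factor that carries ubiquitinated cargo to the proteasome, is known to restrict PEG10 gag-pol.

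NRF1 binds antioxidant response elements, whose core is TGANNNNGC. The 250 bases before the RefSeq start (GRCh38.p14) were searched for this core on both strands in the 42 members with an entry. It occurred in 23 of 42 member promoters (54.8%) and in 35.4% of 27305 promoters of all genes. CCAAT occurred in 18 of 42 (42.9%, against 33.0% of all), CACGTG in 3 (7.14%, against 6.49%), and GAANNTTC and TGACGTCA in none (against 5.85% and 1.77%). The overlap between motifs was not removed, and a match shows the letters, not binding. 4 promoters are printed because they hold the core and their genes were called with gag-pol and NC pooled, below. They are PSMG1 and PSME1, which were higher with gag-pol and NC, and PSMC4 and PSMD12, which were lower. PSMD8, called higher only with NC against control, also holds the core and is not printed. Capitals mark TGANNNNGC on either strand, or CCAAT.
PSMG1 (chr21:39183452-39183701, minus strand): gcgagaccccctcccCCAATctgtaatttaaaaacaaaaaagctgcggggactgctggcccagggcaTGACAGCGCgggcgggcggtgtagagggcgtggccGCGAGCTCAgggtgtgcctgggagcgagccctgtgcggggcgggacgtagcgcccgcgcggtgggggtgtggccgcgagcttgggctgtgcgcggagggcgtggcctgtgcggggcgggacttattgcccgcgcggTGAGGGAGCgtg
PSME1 (chr14:24135944-24136193, plus strand): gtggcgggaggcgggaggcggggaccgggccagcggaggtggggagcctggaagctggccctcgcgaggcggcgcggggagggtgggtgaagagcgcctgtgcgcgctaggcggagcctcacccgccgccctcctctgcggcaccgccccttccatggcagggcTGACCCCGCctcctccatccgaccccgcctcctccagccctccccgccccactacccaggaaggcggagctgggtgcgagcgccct
PSMC4 (chr19:39970915-39971164, plus strand): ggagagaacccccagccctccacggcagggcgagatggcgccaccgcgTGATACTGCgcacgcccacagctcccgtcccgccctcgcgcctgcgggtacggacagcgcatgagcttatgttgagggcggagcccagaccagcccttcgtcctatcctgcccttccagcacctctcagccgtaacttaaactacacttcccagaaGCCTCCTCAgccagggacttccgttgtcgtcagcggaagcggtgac
PSMD12 (chr17:67366578-67366827, minus strand): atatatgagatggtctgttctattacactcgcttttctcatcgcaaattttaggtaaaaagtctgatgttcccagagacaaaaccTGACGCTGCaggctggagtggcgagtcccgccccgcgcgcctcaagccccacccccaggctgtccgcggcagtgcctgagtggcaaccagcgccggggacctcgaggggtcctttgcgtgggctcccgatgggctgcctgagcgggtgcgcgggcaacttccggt
The core stood on both sides of the contrast in which gag-pol and NC were pooled against the remaining groups. It was present in 2 of the 5 promoters with an entry among the members called higher and in 2 of the 3 among the members called lower. Against control it was in 1 of 1 higher and 0 of 2 lower with gag-pol, and in 2 of 3 and 0 of 1 with NC. Against gag it was in 1 of 1 higher and 1 of 1 lower with gag-pol, and in 2 of 4 and 1 of 1 with NC. These counts are small, and a link between the core and the direction was not tested.

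Libraries held 30625725 to 45316749 counts, and the members took 0.399% to 0.518% of them. The share of PEG10 was 0.0230% to 0.0346% in control cells. It was 2.80% to 7.35% in gag-pol cells, 3.78% to 6.10% in gag cells and 0.238% to 0.389% in NC cells, so PEG10 RNA was above control in each of them. These shares were not corrected for the length of the insert, which is shortest in NC, and do not rank the constructs by dose. Markers of HEK293 cells were detected except for PAX8, which was near 0, and 7 markers of blood, liver, pigment, endothelial and muscle cells summed to 0.600 to 2.56 CPM (library-scaled counts) in all libraries. That sum was 1.28 to 2.55 in control, 1.84 to 2.56 in gag, 0.675 to 1.13 in gag-pol and 0.600 to 1.97 in NC libraries, with TYR at 0, and its part in the results was not tested. In bulk RNA, fewer cells that make a transcript and less of it per cell cannot be told apart.

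Nearly all standard subunits were abundant in control cells. Per length, as RPKM (reads per kilobase of the canonical transcript, scaled to library size), the highest level was that of PSMA7 (245 ± 27.4, SD, n = 3), followed by PSMD8 (175 ± 38.5), PSMB4 (160 ± 12.3) and PSMC4 (139 ± 11.6). The SD of PSMA7 did not reach that of PSMD8, while PSMD8, PSMB4 and PSMC4 did not differ beyond their SDs. The median level was 108 RPKM in the beta ring (34.3 to 160), 56.9 in the 19S ATPase ring (19.2 to 139), 50.7 in the 19S non-ATPase subunits (17.0 to 175) and 50.4 in the alpha ring (14.8 to 245). The subunits of 1 ring sit in equal numbers in the particle, which RNA levels do not measure. RPKM values differed 16.6-fold in the alpha ring, 7.24-fold in the ATPase ring, 4.66-fold in the beta ring and 10.3-fold in the non-ATPase subunits. These spreads depend on the transcript length used, 962 bases for PSMA7 and 3815 for PSMA5. Before division by length, PSMA7 had a control mean of 8871 counts, scaled to the mean library, and PSMA5 had 2115. The 4 chaperones of the 20S core had a median of 27.3 RPKM. Among the alternative caps, PSME1 had 55.0 ± 10.1 RPKM and PSME2, its partner in the PA28 ring, 39.1 ± 4.24, while PSME4 (PA200) had 9.49 ± 1.02.

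**Figure D1:**
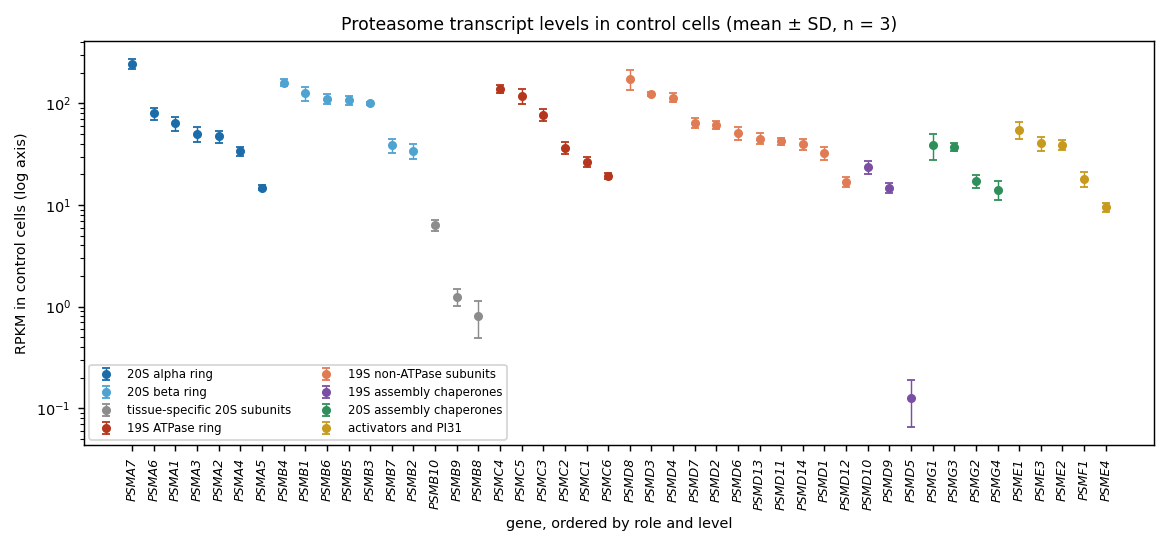
RPKM of each member in control cells on a log axis, as mean ± SD of 3 libraries and coloured by role. The standard subunits lie between 14.8 RPKM (PSMA5) and 245 RPKM (PSMA7), and the immunoproteasome genes PSMB8, PSMB9 and PSMB10 between 0.808 and 6.34 RPKM. PSMA8 and PSMB11, at 0.0159 and 0.0483 RPKM, are left out.

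The tissue-specific 20S subunits stood far below. PSMB10, PSMB9 and PSMB8 replace the catalytic beta subunits in the immunoproteasome, and they had 6.34 ± 0.789, 1.25 ± 0.239 and 0.808 ± 0.317 RPKM, where PSMB5, PSMB6 and PSMB7 had 108 ± 11.1, 112 ± 12.1 and 38.7 ± 6.03. The thymus subunit PSMB11 had 0 to 8 counts in each library except gag-pol replicate 2, which had 43. The testis subunit PSMA8 had 0 to 8 counts. These 2 genes did not pass the filter on low counts, so 46 members were tested. PSMD5 was tested but had only 3 to 38 counts per library, which at this depth leaves its fold changes undetermined. Exons of PSMC1 shared 76.1% of their bases with NRDE2 on the opposite strand, and PSMB8 and PSMB9 overlap each other and an antisense gene. Exons of PSMD7 (31.2%), PSMC5 (15.3%) and, to a like extent, PSMG4 also shared bases with genes on the opposite strand, and those of PSMB10 (39.4%), PSMA1 (26.7%), PSMA2 (17.2%), PSMD9 (14.9%) and PSMA6 (14.1%) with genes on the same strand. Whether the counting used strand is not given in the sources used here, so the counts of these genes, called ones included, are uncertain.

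Gag-pol changed few proteasome transcripts. PSMC5, an ATPase of the 19S ring, and PSMD1, a scaffold subunit of the 19S cap, were lower than in control cells, and PSMG1 was higher. Normalized counts, scaled to the mean library, of PSMC5 in replicates 1 to 3 were 6499.8, 4771 and 6442 in control and 5291, 3962 and 4822 in gag-pol libraries. The groups overlapped, but the gag-pol library was lower within each of the 3 passages. PSMC5 fell by 0.33 on the log2 scale (SE 0.08, adjusted p = 0.0106, from edgeR's quasi-likelihood F test, adjusted by Benjamini-Hochberg over 17176 genes). PSMD1 had 4712, 3512 and 3989.8 in control and 3704, 3094 and 3399 in gag-pol libraries, and it fell by 0.25 (SE 0.08, adjusted p = 0.0352). PSMG1 (chromosome 21, 39174769 to 39183488 in GRCh38, minus strand) had 3148, 2845 and 1733 in control and 3565, 3033 and 2643 in gag-pol libraries. Gag-pol was the higher in all 3 passages, most in the third, and the change was 0.29 (SE 0.09, adjusted p = 0.0389).

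These 3 calls, 1 higher and 2 lower, were 6.52% of the 46 members tested, a share below the 11.3% of all genes tested that were called (5.48% higher and 5.83% lower). The median change of the members was -0.01 (log2), and that of all genes was 0.00. For 39 of the 46 members the 95% interval of the change lay within 0.5 log2 units of 0. The called changes were themselves smaller than this limit, so this count and those below bound large changes only. Over all genes 49.7% of fold changes were above 0. All 6 ATPase genes had fold changes below 0 (median -0.16, of which only PSMC5 was called), and all 4 chaperones of the 20S core had fold changes above 0. Of these, PSMG4 had 0.38 (SE 0.14, adjusted p = 0.0825) and PSMG2 had 0.31 (SE 0.11, adjusted p = 0.0598), and PSMG3 had 0.01 (SE 0.08). When each library was corrected for a trend on GC and length, PSMG2 (0.40, adjusted p = 0.0129) and PSMG4 (0.44, adjusted p = 0.0402) were called beside PSMG1, PSMD1 was not (adjusted p = 0.0647), and the split became 3 higher and 1 lower.
The calls rested on few libraries. The PSMC5 call was lost without control replicate 3 (adjusted p = 0.0704) or gag-pol replicate 1 (0.0539), that of PSMG1 without any of 5 libraries (up to 0.283 without gag-pol replicate 3) and that of PSMD1 without any of 7 (up to 0.190 without control replicate 1). None of the 3 was made without the replicate number in the model, 1 was made from the 6 compared libraries alone, and the count fell to 0 without control replicate 3 or gag-pol replicate 1 and to 1 without control replicate 2, gag-pol replicate 3 or gag replicate 1.

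Gag left the proteasome genes without a call. No member passed in edgeR's test or in DESeq2, 4 of 46 had an unadjusted p under 0.05 in edgeR (13.7% of all genes did), and 1.08% of all genes tested were called. The ends of the range among the members were scarce transcripts, PSMB9 at -0.76 (SE 0.43, adjusted p = 0.456), with 45.7, 57.7 and 39.8 normalized counts in control and 25.4, 17.6 and 51.5 in gag libraries, and PSMD5 at 0.26 (adjusted p = 0.931). Their groups overlapped. For 43 of 46 members, all but PSMB8, PSMB9 and PSMD5, the 95% interval lay within 0.5 log2 units of 0. PEG10 took 3.78% to 6.10% of the counts in gag and 2.80% to 7.35% in gag-pol libraries. The inserts differ in length, so these shares do not compare numbers of transcripts or amounts of protein. A part of dose in the calls was not tested.

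NC raised PSMG1, PSMD10 and PSMD8 and lowered PSMD1 against control. PSMG1, which with PSMG2 forms the chaperone of the alpha ring, had 3764, 4054 and 2559.6 normalized counts with NC, against 3148, 2845 and 1733 in control. The ranges overlapped, with replicate 3 lowest in both groups, and NC was higher in each passage. The change was 0.44 (SE 0.09, adjusted p = 0.00485, edgeR). It stayed called whichever of the 12 libraries was dropped, with the highest adjusted p at 0.0498 without control replicate 3, and in all 3 that left out a replicate number.
PSMD10, the 19S chaperone gankyrin, had 1365, 1454 and 1091 in control and 1672, 1777 and 1453 with NC, a change of 0.33 (SE 0.10, adjusted p = 0.0330). It was higher in 3 of 3 passages, and the call was lost without NC replicate 1, 2 or 3 or control replicate 2 or 3, with adjusted p up to 0.238. PSMD8, a lid subunit, had 11943, 10444 and 7614 in control and 13914, 13176 and 9175 with NC, a change of 0.28 (SE 0.08, adjusted p = 0.0209). It was lost without NC replicate 1 or 2 or control replicate 2 or 3, with adjusted p up to 0.114. PSMD1 had 3757, 3188 and 3316 with NC and fell by 0.24 (SE 0.08, adjusted p = 0.0431). This call survived the loss of 4 of the 12 libraries and not after removal of the GC and length trend (adjusted p = 0.0775).

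The 4 calls were 8.70% of the members, against 11.2% of all genes tested (6.04% higher and 5.15% lower). The median over the members was 0.04 (27 of 46 above 0), and 39 of 46 intervals lay within 0.5 log2 units of 0. That median was -0.02 (20 of 46) without NC replicate 2 and 0.08 (32 of 46) without NC replicate 3. Fold changes were above 0 in 50.6% of all genes. By role, 6 of 7 alpha subunits and 6 of 7 beta subunits had fold changes above 0 with none called, and all 6 ATPase subunits had fold changes below 0 with none called. The catalytic subunits PSMB5, PSMB6 and PSMB7 changed by 0.05 (SE 0.09), -0.08 (SE 0.09) and 0.14 (SE 0.11), and PSMD14 by 0.03 (SE 0.08), none of them called. The count fell to 1 without NC replicate 1, control replicate 2 or control replicate 3, and to 2 without NC replicate 2 or NC replicate 3, and no call was made without the replicate number in the model.

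Gag-pol and gag differ in the pol part. In gag-pol cells PSMC4, an ATPase subunit, was lower than in gag cells and PSMG1 was higher. PSMC4 had 11188, 8614 and 10341 normalized counts in gag and 8629, 7536 and 8359.9 in gag-pol libraries, so that gag-pol was lower in each passage. It fell by 0.29 (SE 0.07, adjusted p = 0.0193, edgeR). PSMG1 had 2943, 2691 and 1904 in gag libraries, and the change was 0.31 (SE 0.09, adjusted p = 0.0408). The 2 calls were 4.35% of the members, where 6.46% of all genes were called (3.03% higher and 3.42% lower).
PSMC4 was not called after the GC and length trend was removed (-0.23, adjusted p = 0.0660), and the split then was 5 higher (PSMA3, PSMD10, PSME1, PSMG1 and PSMG4) and none lower. The PSMC4 call was lost without gag replicate 1 or 3 or gag-pol replicate 1 or 3 (adjusted p up to 0.148), and that of PSMG1 in 7 of 12 fits, up to 0.346 without gag-pol replicate 3. The count fell to 0 without gag replicate 1 or 3 or gag-pol replicate 1 or 3 and to 1 without control replicate 2, gag replicate 2 or NC replicate 1, and it rose to 5 without control replicate 3. The compared libraries alone gave 7 calls, and no call was made without the replicate number.

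NC lacks the capsid part of gag. Here 5 members were higher with NC and 1 lower, a total of 6 of 46 members, where 16.9% of all genes tested were called (8.76% higher and 8.12% lower). PSMG1 was 0.46 higher with NC than with gag (SE 0.09, adjusted p = 0.00219, edgeR), and the call held whichever of the 12 libraries was dropped. PSME1, a subunit of the PA28 cap, had 1389, 1913 and 2155 in gag and 1940.1, 2637 and 2431 with NC. NC was higher in each passage, by 0.37 (SE 0.10, adjusted p = 0.0133). PSMD10 had 1186, 1338 and 1296 in gag, all below the lowest NC library, and differed by 0.36 (SE 0.10, adjusted p = 0.0156). PSMD12, a lid subunit, had 3421, 2652 and 2878 in gag and 2508, 2319 and 2291 with NC, and the groups did not overlap. PSMD12 fell by 0.32 (SE 0.08, adjusted p = 0.00986).
The core subunits PSMB2 (0.26, SE 0.08, adjusted p = 0.0365) and PSMB1 (0.22, SE 0.08, adjusted p = 0.0481) were the remaining calls. With single libraries left out, PSMB1 stayed called in 3 of 12 fits and PSMB2 in 8 (adjusted p up to 0.180 and 0.190). PSMB2 had 5528.5, 5319.7 and 5187 in gag and 6898, 6825 and 5593 with NC, without overlap. All 7 alpha and all 7 beta subunits had fold changes above 0 (49.2% of all genes did), with medians of 0.16 and 0.10, and 5 of 6 ATPase genes had fold changes below 0. The direction over all members depended on single libraries. Their median was 0.03 (28 of 46 above 0) with all libraries and -0.03 (18 of 46) without NC replicate 2. It was 0.11 (32 of 46) without NC replicate 3. The count fell to 1 without NC replicate 1 or gag replicate 1 and to 2 without gag replicate 2. The calls of PSME1 and PSMD10 were both lost without NC replicate 1, gag replicate 1 or gag replicate 2 (adjusted p up to 0.101 and 0.119), and that of PSMD12 without NC replicate 1 or gag replicate 1 (up to 0.0923).

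NC and gag-pol could not be told apart in these genes. No member was called by edgeR or DESeq2, 1 of 46 (PSMD14, 0.20, SE 0.08, adjusted p = 0.404) had an unadjusted p under 0.05 in edgeR (9.92% of all genes did), and 0.0873% of all genes were called. The ends of the range were PSMB9 at 0.64 (SE 0.42, adjusted p = 0.640) and PSMB8 at -0.24 (SE 0.56, adjusted p = 0.933), both with under 80 normalized counts in every library. For 42 of 46 members the 95% interval of the difference lay within 0.5 log2 units of 0, which leaves room for differences of the size called in other comparisons.

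Gag-pol and NC were also pooled and set against gag with control, as 6 libraries a side. This contrast reuses the libraries above and was chosen with those results known. The 20S chaperones PSMG1 and PSMG4 (2 of 4), the 19S chaperone PSMD10 (1 of 3), the cap gene PSME1 (1 of 5 activators and PI31) and the beta subunits PSMB1 and PSMB2 were higher on the gag-pol and NC side, and the 19S subunits PSMC4, PSMC5 and PSMD12 were lower. PSMG1 had a lowest, median and highest value of 2559.6, 3299 and 4054 with gag-pol and NC, against 1733, 2768 and 3148 with gag and control. The ranges overlapped, and the mean of the pair was higher in 3 of 3 passages. PSMG1 changed by 0.38 (SE 0.06, adjusted p = 0.000326, edgeR), which was the lowest adjusted p of any member in this contrast. PSMG4, another 20S chaperone, had 425, 489.6 and 681 against 341, 425 and 509, a change of 0.30 (SE 0.10, adjusted p = 0.0298).
PSMD10 had 1385, 1490.1 and 1777 against 1091, 1317 and 1454, a change of 0.26 (SE 0.07, adjusted p = 0.00847). PSME1 (0.25, SE 0.07), PSMB2 (0.19, SE 0.06) and PSMB1 (0.15, SE 0.05) were the other members called higher. The 3 falls were in the cap. PSMD12 fell by 0.23 (SE 0.06, adjusted p = 0.00591), PSMC5 by 0.22 (SE 0.06, adjusted p = 0.00765) and PSMC4 by 0.18 (SE 0.05, adjusted p = 0.0117). PSMC5 had a lowest, median and highest of 3962, 4789 and 6270.4 with gag-pol and NC, against 4563, 6122 and 6499.8 with gag and control.

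**Figure D2:**
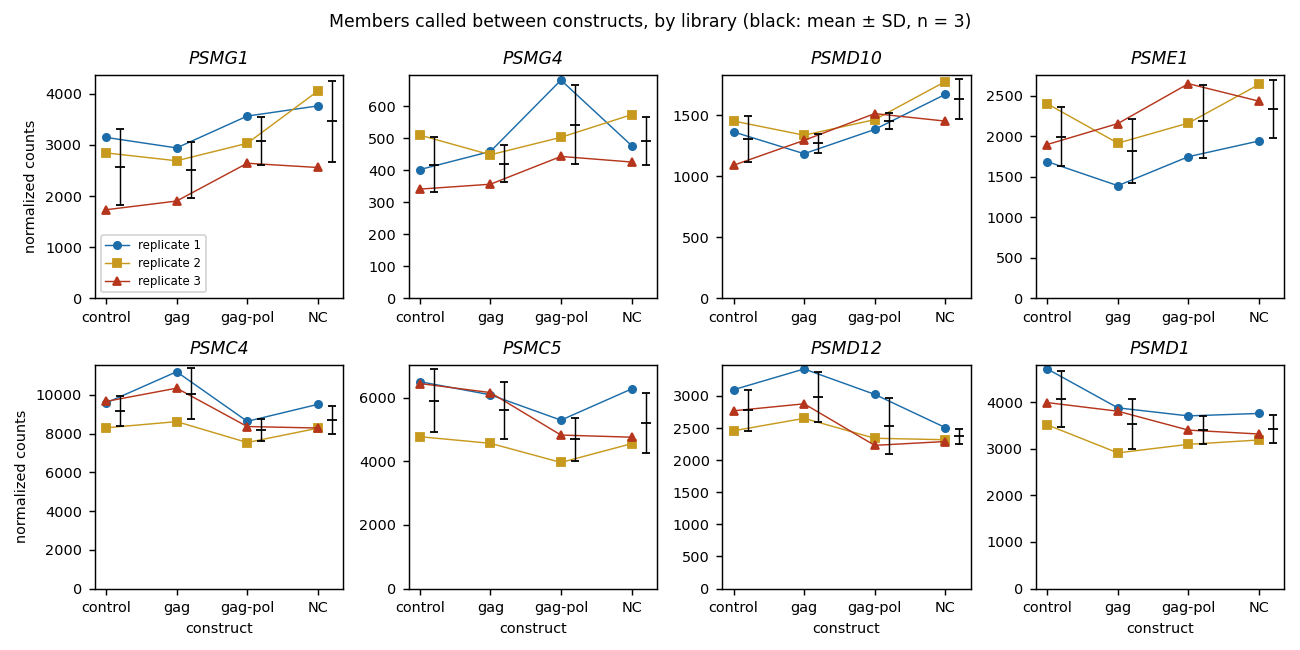
Normalized counts of 8 members called between constructs, by construct, with a line for each replicate number and the mean ± SD of 3 libraries in black. For PSMG1 replicate 3 lies lowest throughout, from 1733 in control to 2643 with gag-pol, while within each number gag-pol and NC lie above gag and control.

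The 9 calls were 19.6% of the members tested, where 24.7% of all genes were called (13.1% higher and 11.6% lower). Fold changes were above 0 in 48.6% of all genes, in 6 of 7 alpha subunits (median 0.11, none called) and 6 of 7 beta subunits (median 0.05, 2 called), and below 0 in 5 of 6 ATPase subunits (median -0.14, 2 called) and 9 of 11 non-ATPase subunits (median -0.05, 1 called). The difference between the core and the cap was not tested. Over all members the median was 0.02, with -0.01 when NC replicate 2 was left out and 0.05 when NC replicate 3 was.
PSMG1, PSMD10 and PSMD12 kept their calls whichever of the 12 libraries was dropped. PSME1 was lost without gag-pol replicate 3 (adjusted p = 0.0537), PSMC5 without NC replicate 3 (0.0503), and PSMC4 without NC replicate 3 (0.0611) or gag replicate 1 (0.0520). PSMB2 was lost in 4 of these fits, PSMG4 in 8 and PSMB1 in 9, with adjusted p up to 0.0899, 0.142 and 0.175. Without gag replicate 1 the count was 5. After removal of the GC and length trend 8 members were higher and 2 lower, with PSMC4 no longer called (-0.14, adjusted p = 0.0730) and PSMA3 and PSMD8 added. No call was made without the replicate number in the model.

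**Figure D3:**
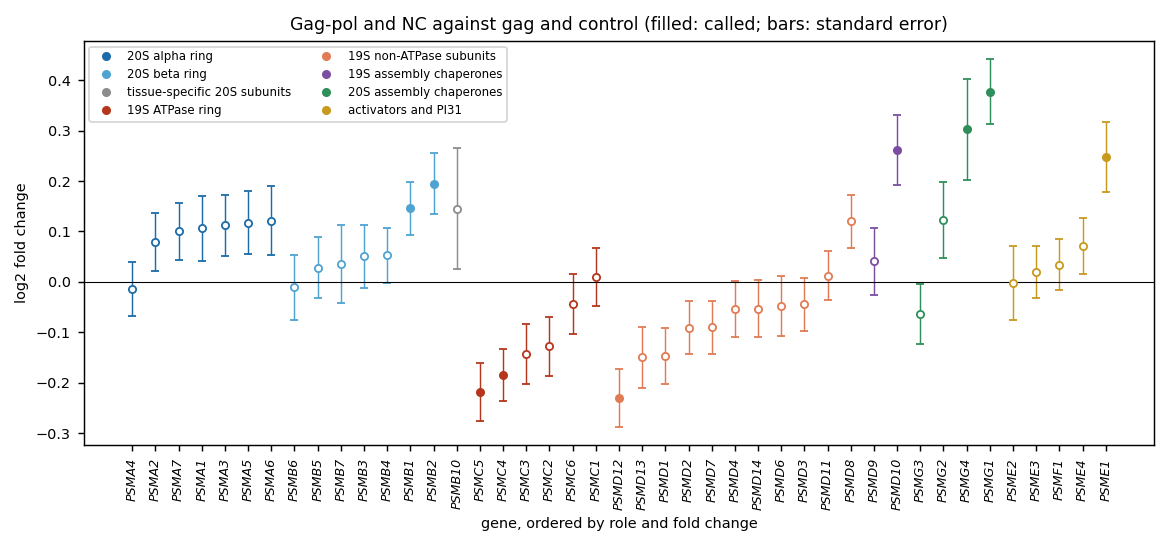
Log2 fold change ± SE of each member between the pair gag-pol and NC and the pair gag and control (6 libraries a side), grouped by role, with filled points for called members. The 20S chaperone PSMG1 is highest at 0.38 and the cap subunit PSMD12 lowest at -0.23 among the members shown. PSMB8, PSMB9 and PSMD5, with few counts, are left out.

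The replicate number moved the proteasome genes more than the construct, as it did all genes tested. It carried a median of 57.1% of the variance of log2 counts in the members and the construct 17.8%, and over all genes tested the medians were 42.3% and 27.9%. In PSMG1 the shares were 61.0% and 31.6%, and in PSMD10 they were 15.3% and 60.2%. The numbers are taken as the 3 passages of the design text, and anything else that differed between the days of harvest cannot be told apart from passage.

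**Figure D4:**
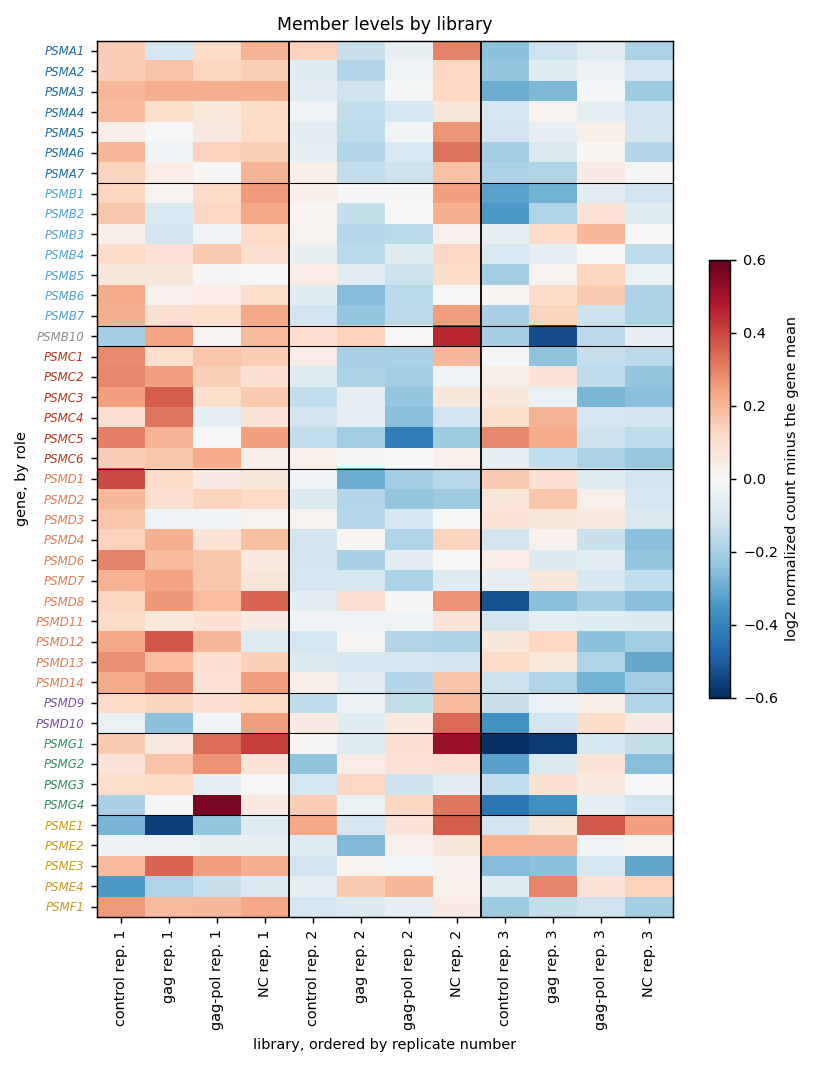
Log2 normalized count of 43 members (mean above 200) minus the mean of each gene, in 12 libraries ordered by replicate number and then construct, with genes by role and coloured as in the plot of control levels. The replicate 1 libraries are mostly above the gene mean for ring and cap subunits, while PSME1 and PSME4 are below it there.

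In the main fit replicate 2 had most of its lower calls against replicate 1 in the 19S cap. In this comparison 17 members were called lower and 2 higher, which was 41.3% of the members where 30.5% of all genes were called, 14.7% of them lower and 15.9% higher. The lower calls held 5 of 6 ATPase genes and 8 of 11 non-ATPase genes, and 1 of 7 alpha genes (PSMA3) and 1 of 7 beta genes (PSMB6). All 7 alpha and all 7 beta genes had fold changes below 0, as 8683 of 17176 genes tested did. Their medians were -0.11 and -0.09, against -0.27 in the ATPase and in the non-ATPase genes. DESeq2 also called PSMA2 and PSMA4 lower (adjusted p = 0.0485 and 0.0483). The share of the core depended on the fit. The compared libraries alone added PSMA2, PSMA4, PSMB4 and PSMB7 as lower, and leaving out NC replicate 2 added these and PSMA6. With the GC and length trend removed, 0 of 7 alpha and 0 of 7 beta genes were called lower. The difference between core and cap was not tested. PSMC5 had 5291, 6087, 6270.4 and 6499.8 normalized counts in the replicate 1 libraries and 3962, 4551, 4563 and 4771 in the replicate 2 libraries. The ranges did not overlap, and PSMC5 fell by 0.44 (SE 0.07, adjusted p = 7.97e-05, edgeR). PSMD1 fell by 0.33 (SE 0.07, adjusted p = 0.00073) and PSMC2 by 0.31 (SE 0.07, adjusted p = 0.00198). PSME1 rose by 0.43 (SE 0.09, adjusted p = 0.000639) and PSME4 by 0.27 (SE 0.07, adjusted p = 0.00498), while PSME3, the nuclear relative of PSME1, fell by 0.27 (SE 0.06) and PSMF1 by 0.27 (SE 0.06).

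Replicate 3 had lower calls against replicate 1 in most of the core as well. Here 27 members were lower and 3 higher, 65.2% of the members against 41.6% of all genes, with 21.0% of genes lower and 20.6% higher. The lower calls held 6 of 7 alpha, 4 of 7 beta, 4 of 6 ATPase and 8 of 11 non-ATPase genes and 3 of the 4 chaperones of the 20S core. PSMG1 had 2943, 3148, 3565 and 3764 in replicate 1 libraries and 1733, 1904, 2559.6 and 2643 in replicate 3 libraries. It fell by 0.61 (SE 0.08, adjusted p = 2.53e-06), with no overlap. PSMD8 fell by 0.54 (SE 0.07, adjusted p = 1.14e-06) and PSME3 by 0.48 (SE 0.06, adjusted p = 3.57e-06). PSMB9 rose by 0.91 (SE 0.37, adjusted p = 0.0490), from 14.1 to 45.7 normalized counts in replicate 1 to 39.8 to 79.3 in replicate 3, ranges that overlap. This call was lost without any of 8 libraries (adjusted p up to 0.204 without gag-pol replicate 1) and in DESeq2 (0.0538). PSME1 rose by 0.44 (SE 0.09) and PSME4 by 0.30 (SE 0.07).

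Replicates 3 and 2 differed in fewer members, 8 lower and 4 higher in replicate 3, which was 26.1% against 27.1% of all genes (14.1% lower and 12.9% higher). PSMG1 fell by 0.52 (SE 0.08, adjusted p = 6.01e-05), PSMB10 by 0.40 (SE 0.15, adjusted p = 0.0448) and PSMG4 by 0.39 (SE 0.12, adjusted p = 0.0210). PSMB8 rose by 1.36 (SE 0.47, adjusted p = 0.0343), from 4.88 to 36.4 normalized counts in replicate 2 to 38.7 to 46.2 in replicate 3. These ranges did not overlap, but the counts are small. The PSMB10 call was lost without any of 7 libraries (adjusted p up to 0.213 without gag replicate 3), the PSMG4 call without NC replicate 2, control replicate 2 or 3 or gag replicate 3 (up to 0.129), and the PSMB8 call without NC replicate 3, gag replicate 2 or 3 or gag-pol replicate 2 (up to 0.138). PSMC5 rose by 0.31 (SE 0.07, adjusted p = 0.00223) and PSMD2 by 0.22 (SE 0.06, adjusted p = 0.0119), the latter lost without gag replicate 2 or 3 or gag-pol replicate 2 (up to 0.0855).

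The calls between passages became fewer when a joint trend on GC content and transcript length was taken out of each library. Then replicate 2 against 1 had 9 members lower and 3 higher, with the median going from -0.15 to -0.08, and replicate 3 against 1 had 13 lower and 3 higher, with the median going from -0.23 to -0.10. Of the alpha ring 1 of 7 and of the beta ring 1 of 7 were then called lower in replicate 3 against 1, and 2 of 6 ATPase and 4 of 11 non-ATPase genes were. PSMC2 in replicate 2 against 1 was no longer called (adjusted p = 0.138). The part of GC content or of length alone was not tested. Without construct in the model 1 member was higher and 9 lower in replicate 2 against 1, 2 higher and 16 lower in 3 against 1, and 2 lower in 3 against 2. Replicate 2 against 1 had 12 calls without control replicate 2, and replicate 3 against 2 had 5 without gag replicate 3 and 7 without control replicate 2.

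**Figure D5:**
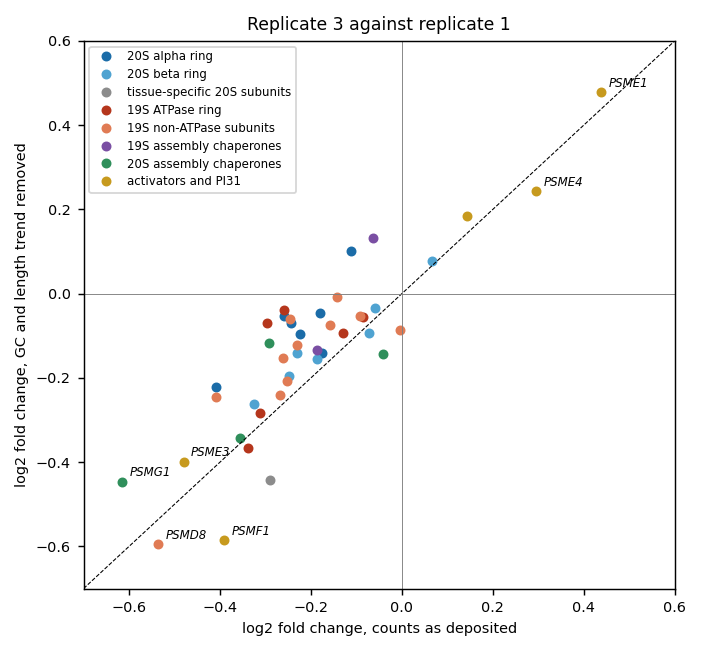
Log2 fold change of each member between replicates 3 and 1 from the counts as deposited (horizontal) and after removal of the GC and length trend (vertical), coloured by role, with the dashed line at equal values. Most points below 0 lie above the line, nearer 0 after the removal, while PSMG1, PSMD8, PSME3 and PSMF1 stay low and PSME1 and PSME4 high. PSMB8, PSMB9 and PSMD5, with few counts, are left out.

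Genes around the proteasome outside the symbol rule were read as 3 lists. Of 13 partners of the particle, none was called with gag-pol or gag against control, where 11.3% and 1.08% of all genes were, and 3 were called with NC, where 11.2% were. With NC the table's SHFM1 (SEM1, a small lid subunit) rose by 0.39 (SE 0.10, adjusted p = 0.0205, edgeR), from 2093, 2264 and 1561 to 2464, 2949 and 2319 normalized counts, and AKIRIN2, which carries proteasomes into the nucleus, and the ubiquitin ligase UBE3C fell by 0.35 and 0.28. Of 8 genes of the NRF1 pathway, MAFG, a small MAF partner of NRF1, fell by 0.31 with gag-pol (SE 0.08, adjusted p = 0.0146) and by 0.55 with NC (SE 0.08, adjusted p = 0.000563). MAFG had 3256, 3201 and 4819.8 normalized counts in control and 2409.7, 2112 and 3174 with NC, which did not overlap. No other gene of that list was called against control.
Of 12 ubiquitin and shuttle genes none was called against control, where the shares of all genes given above were 1.08% to 11.3%, so that lists of this size can show little. UBQLN2 was 0.26 higher with gag-pol than with gag (SE 0.08, adjusted p = 0.0485) and 0.24 higher with NC than with gag (SE 0.08, adjusted p = 0.0362). It had 3389.9, 3335 and 2413 normalized counts with gag, 3992, 3789 and 3068 with gag-pol and 3771, 3898 and 3055 with NC. In control it had 3358, 3857 and 2599, and the ranges of all groups overlapped. Fold changes were refitted with libraries left out for the members only, so how far these UBQLN2 calls rest on single libraries is not known. In gag-pol against gag it was the only call of the 12, where 6.46% of all genes were called. In NC against gag 2 of the 12 were called, 1 higher and 1 lower, where 16.9% of all genes were called.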

How the data were processed

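Poly(A) RNA of 12 HEK293 cultures was sequenced. The deposited values are whole-number counts per gene that the authors made with STAR 2.7.3, SAMtools 1.8 and featureCounts on GRCh38.p13 (per the labels), and annotation release, strand and multimapping settings are not given in the sources used here. The authors' own model used DESeq2 with harvest date and construct.

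Counts were tested with edgeR 4.0.16 (R 4.3.3, robust quasi-likelihood, TMM) after filterByExpr by construct (minimum count 10, total 15), with construct and replicate number in the model, all 12 libraries, 6 residual degrees of freedom and Benjamini-Hochberg adjustment over 17176 genes. A member was called at an adjusted p under 0.05. SE is the fold change divided by the square root of F. The design text ties the numbers to passages. Deviations of same-numbered libraries from their group means correlated at 0.138 to 0.539 (18 pairs), those of other pairs at -0.498 to 0.0720 (36 pairs), so the numbers were kept as a block. Replicates differed by more than sampling noise, and intervals use the 6 residual degrees of freedom. Arms have 3 libraries, which limits precision to a median 95% half-width near 0.21 log2 units between single constructs. The p-values rest on the spread left after construct and replicate number, within passages of the same line. Libraries of a replicate number come from the same passage with different constructs. P-values between replicate numbers therefore do not cover the spread between passages.

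Normalized counts are TMM-scaled counts at the mean library total. Lengths and GC content came from GENCODE 44 canonical transcripts (92.6% of symbols matched, 96.1% of tested genes with both values), promoters from RefSeq. Alternatives were RLE and upper-quartile factors, DESeq2 1.42.0, other filters, PEG10 left out, GC and length trend removal, no replicate block, only compared libraries, and each library or number left out. On simulated data for gag-pol against control (16922 genes), 78.0% of 100 changes of log2 1 and 51.0% of 96 changes of 0.5 were called. Beside these 78 and 49 true calls stood 15 false ones. For NC against control the true calls were 71 of 100 and 47 of 100, beside 14 false ones. The members and lists were chosen with earlier results of these data known. Named with values were, per comparison, up to the 3 largest called rises and falls (with no call, the ends of the range). The catalytic, activator and chaperone genes were named besides, in some comparisons only. A withheld item is not reported here.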

Additional observations from a re-analysis of the deposited data

Results flagged for a closer look

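Of 42 groups of 4 or 6 libraries of named members, 1 held a library far from the others by Dixon's ratio, and chance gives about 1 in 20. PSMD12 in gag-pol replicate 1, at 3025 normalized counts, stood above the other gag-pol and NC libraries, which reached 2508 at most (ratio of the gap to the range 0.651).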

How the results depend on the processing

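No fold change of a called member reversed under an alternative. Of 10698 refitted fold changes, 377 lost and 107 gained a call. Only refits of the 85 called fold changes could lose a call, so 10698 is not the base of the 377 losses. Without the replicate block the calls went to 0 in gag-pol against control (from 3), NC against control (from 4), gag-pol against gag (from 2), NC against gag (from 6) and the contrast of the pairs of groups (from 9). Between replicate numbers, where the number is the term compared, construct was the term left out in place of the block, and the calls went to 10 (from 19), 18 (from 30) and 2 (from 12) in replicates 2 against 1, 3 against 1 and 3 against 2. With only the compared libraries the count was 1 in gag-pol against control, 7 in gag-pol against gag and 6 in replicate 3 against 2, and the contrast of gag-pol with NC against the other pair uses all libraries, so that it has no such value. With the GC and length trend removed, it was 5 in gag-pol against gag, 12 in replicate 2 against 1 and 16 in 3 against 1. Without a filter on low counts it was 4 in gag-pol against gag. The cause was not tested. Leaving out a library or a replicate number gave 0 to 4 calls in gag-pol against control, 0 in gag against control, 1 to 4 in NC against control, 0 to 5 in gag-pol against gag, 1 to 11 in NC against gag, 0 to 1 in NC against gag-pol, 2 to 11 in the contrast of the pairs, 12 to 26 in replicate 2 against 1, 20 to 32 in 3 against 1 and 5 to 14 in 3 against 2. Upper-quartile factors dropped PSMG1 in gag-pol against control, leaving 0 higher and 2 lower, and leaving PEG10 out of the table changed no count by more than 1.5 times. Depth limited PSMB8, PSMB9 and PSMD5.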

Other observations

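Several genes carry a proteasome-like symbol but fall outside the rule. PSMC3IP, a partner in meiotic recombination named for its binding to PSMC3 and not a subunit, fell by 0.57 with gag-pol against control (SE 0.10, adjusted p = 0.00147, edgeR's quasi-likelihood test) and by 0.42 with NC (SE 0.10, adjusted p = 0.0117), in 3 of 3 passages each. It was chosen after its values were seen. PSMC3 itself was not called with either construct. The antisense gene PSMG3-AS1 fell by 1.08 in replicate 2 against 1 (SE 0.20) and by 0.87 in replicate 3 against 1 (SE 0.20), while PSMG3 changed by -0.09 (SE 0.07) and -0.04 (SE 0.07).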
